A study of Rattus norvegicus with 4 samples.

Results

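The genes described here encode the cyclic AMP (cAMP) signalling chain of visceral fat: the adrenoceptors, the alpha subunits of the G proteins Gs and Gi, the adenylyl cyclases, protein kinase A, the phosphodiesterases and the A-kinase anchoring proteins. They were chosen by symbol in the annotation of the array: Adra, Adrb, Adcy (without the Adcyap genes), Prka (without Prkaa, Prkab and Prkag, which are subunits of another kinase), Pde (phosphodiesterases only), Akap, Gnai and Gnas. For each gene the probe set with the highest mean signal was used, and it was kept when at least 2 arrays exceeded the 20th percentile of all signals, a floor under which signals were not ordered. By this rule 55 genes matched and 49 were kept, of 9012 genes kept on the whole array. The 49 were 8 adrenoceptors, 3 G protein alpha subunits, 6 cyclases, 6 kinase subunits, 16 phosphodiesterases and 10 anchoring proteins. Total RNA came from fat of Wistar males at 130 days of age, as 2 control and 2 obese samples, each on 1 array with 1 colour. The labels give neither the cause of the obesity nor the number of animals behind a sample, so the p-values below measure sample-to-sample spread alone, and that spread may be technical.

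In fat cells, noradrenaline and adrenaline bind beta adrenoceptors, which act through Gs to switch on adenylyl cyclase, and alpha-2 adrenoceptors, which act through Gi to hold it back. cAMP releases the catalytic subunits of protein kinase A from their regulatory subunits, and the kinase phosphorylates hormone-sensitive lipase and perilipin, which starts the breakdown of stored triglyceride. Phosphodiesterases destroy cAMP, insulin acts through one of them, PDE3B, to restrain lipolysis, and anchoring proteins hold the kinase at membranes and organelles.

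Median signals of the 4 arrays lay between 75 and 83.1, the lowest on obese replicate 2, and 19.6% to 21.3% of probe sets lay at or under the floor. Across the 49 genes, the log2 signals correlated between arrays with r from 0.952 to 0.983, a description over genes, which are not independent. Over these genes obese replicate 2 stood apart: it correlated with the other arrays at 0.952 to 0.968, and obese replicate 1 was closer to the controls (0.983 and 0.979) than to it (0.968). Over the array as a whole this was less clear. There obese replicate 1 correlated at 0.966 with obese replicate 2, and at 0.969 and 0.964 with control replicates 1 and 2. Per gene, the log2 signals of the 2 control arrays lay a median of 0.17 apart and those of the 2 obese arrays 0.24, and for 13 of the 49 genes the difference between the groups exceeded both of these spreads of its own. The share of all probe sets for which this held is not given here.

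The comparison asked how this chain differed between obese and control fat. None of its genes passed the test: 0 of 49 had an adjusted p under 0.05 in limma (0% of all 12929 probe sets passed), and 4 had an unadjusted p under 0.05, where 8.3% of all probe sets did. A plain test without moderation passed 0 of 49 and put 3 under an unadjusted p of 0.05, where it put 6.82% of all probe sets. The 4 genes were Adrb1 and Pde1b, with higher signals in obese fat, and Adra2a and Pde2a, with lower ones. The groups did not overlap for 17 of the 49 genes, where 40% of all probe sets had no overlap: 8 were higher in obese fat (16.3%, against 15.6% of all probe sets) and 9 lower (18.4%, against 24.4% of all probe sets). With each array centred on its median, these counts were 11 and 8, and the shares over all probe sets were 21.7% and 16.9%. The median log2 difference, obese minus control, was 0.01 over the 49 genes and -0.04 over all probe sets, and 45 of the 49 genes (91.8%) lay within 0.5 of 0, as did 91.3% of all probe sets. These counts and medians were near those of the whole array.

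The number of genes whose groups did not overlap depended on each array. Leaving out control replicate 1 gave 16 higher and 17 lower, and leaving out control replicate 2 gave 15 of each. Leaving out obese replicate 1 gave 19 higher and 15 lower, and leaving out obese replicate 2 gave 14 higher and 15 lower. The shares over all probe sets then lay between 27% and 32.1% for higher and between 36.1% and 46% for lower signals. A group of 1 array separates more easily by construction.

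**Figure D1:**
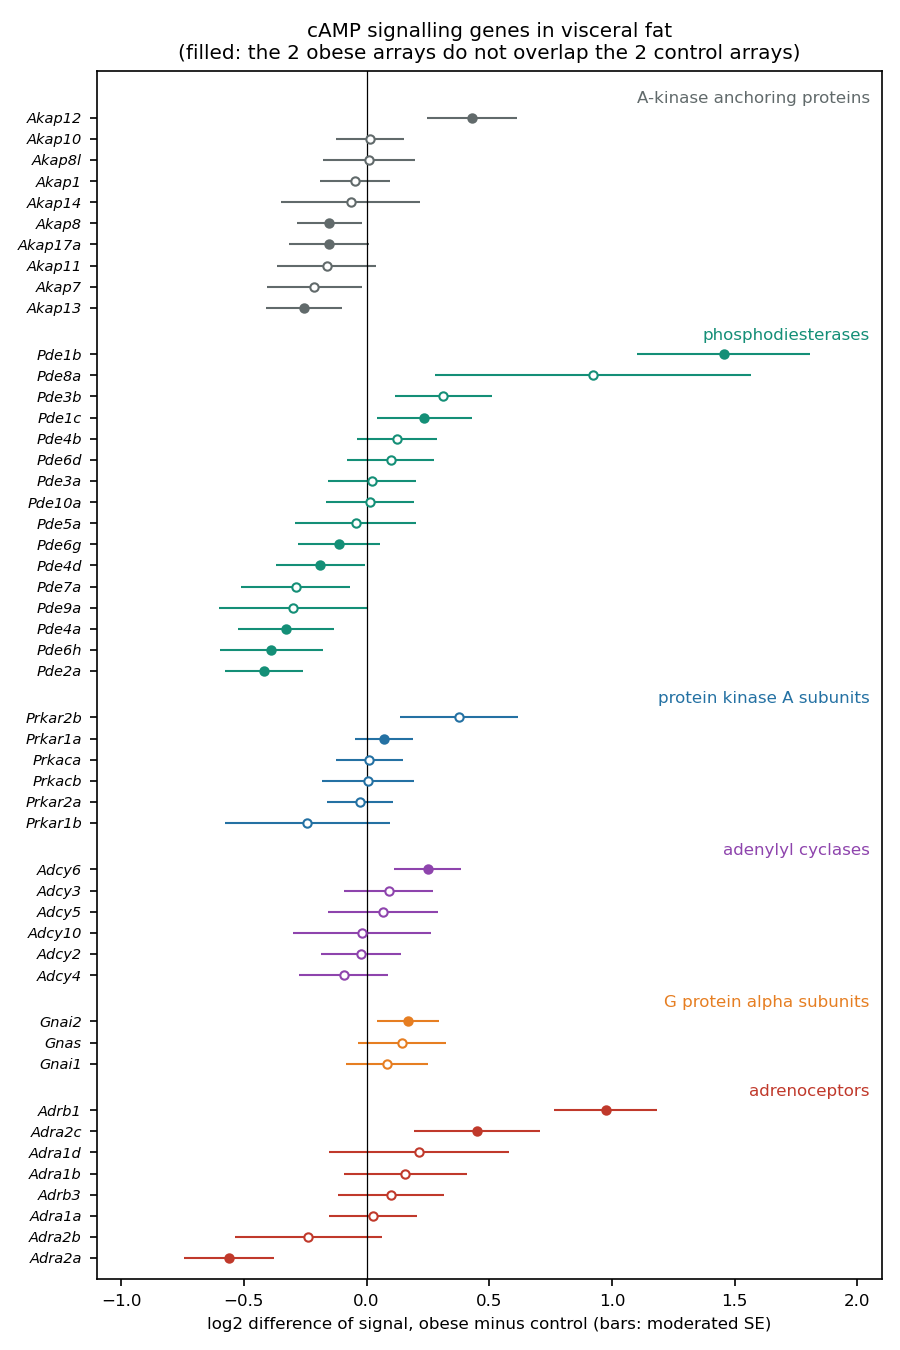
Log2 difference of signal, obese minus control, for each of the 49 genes, grouped by role; points are differences of group means and bars are moderated standard errors. Filled points mark the 8 genes higher and the 9 genes lower in obese fat without overlap of the arrays, and most points lie within 0.5 of 0, with Pde1b and Adrb1 farthest to the right and Adra2a farthest to the left.

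Promoter sequence was set beside these values because cAMP acts on transcription through the cAMP response element, which is bound by CREB family factors. Windows from 250 bases before to 50 after each start site, from RefSeq on GRCr8, were found for 37 of the 49 genes, as 50 windows. The full element, TGACGTCA, which reads the same on both strands, was in 1 of the 50 windows and in 1.83% of all 33469 windows. Its core, TGACG, searched on both strands and also counted inside the full element, was in 14 of the 50 windows, from 12 genes, and in 21.2% of all windows. The median GC content was 65.5% in the members' windows and 51.7% in all windows. A match is a run of letters and was not tested as a binding site. The lines below show 30 bases around a match, 5′ to 3′ along the gene, with the matched letters in capitals. Adrb1 is shown as the gene with the smallest p, Akap17a as the only member with the full element, Prkaca as a catalytic subunit with a core on the opposite strand (Prkacb has one past its start), and Dusp1 as a gene induced by cAMP, named below, that has the full element.
Adrb1 (chr1:265777003-265777032, plus strand, 88 bases before the start): gctgcgggagccTGACGcgcggccccgggg
Akap17a (chr12:21428441-21428470, minus strand, 212 bases before the start): tcgatcgtattTGACGTCAccggtgagcgc
Prkaca (chr19:41083251-41083280, minus strand, 79 bases before the start): ggactgcgggggCGTCAcggacagaggact
Dusp1 (chr10:17184718-17184747, plus strand, 124 bases before the start): ggcagggcgggTGACGTCAccacccggtca

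Of the 8 adrenoceptors, 6 had higher means in obese fat and 2 lower (4 and 4 without obese replicate 2). The groups did not overlap for 3 of them (2 higher and 1 lower), where 40% of all probe sets had no overlap. Adrb1, the beta-1 adrenoceptor, which couples to Gs, had signals of 22.0 and 6.7 on control replicates 1 and 2, and of 47.2 and 37.4 on obese replicates 1 and 2. Each obese array exceeded each control array. The log2 difference was 0.97 ± 0.21 (SE, 2 arrays a group, limma adjusted p = 0.402). Control replicate 2 lay under the floor, so the size depends on it: it was 1.73 with the floor at the 10th percentile (7.3), and 0 with the floor at the 40th (54.7), which lies above all 4 arrays. Adrb3, the beta-3 adrenoceptor, which is the receptor best known from rodent fat, had signals of 471.6 and 719.7 in control and 601.4 and 649.3 in obese fat. The obese arrays lay between the control arrays, and the difference was 0.10 ± 0.22 (limma adjusted p = 0.921). Leaving out single arrays moved it from -0.20 (control replicate 1) to 0.41 (control replicate 2).

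Adra2a, the alpha-2A adrenoceptor, which couples to Gi, had signals of 31.7 and 32 in control and 22.4 and 18.6 in obese fat. Both obese arrays were lower, 1 of them under the floor, and the difference was -0.56 ± 0.18 (limma adjusted p = 0.526). With the floor at the 40th percentile it was 0. Adra2c, the alpha-2C receptor, lay the other way, with 74.8 and 48.1 in control and 79.3 and 84.6 in obese fat. Its difference of 0.45 ± 0.26 (limma adjusted p = 0.694) ranged from 0.13 (control replicate 2 left out) to 0.77 (control replicate 1 left out). Adra2b differed by -0.24 with overlapping groups and with 1 array of each group under the floor. The 3 alpha-1 receptors, which signal through Gq, had differences between 0.03 and 0.21, and the groups overlapped for each of them. Adra1a was among the dimmest genes kept, with signals of 21.1 and 5.3 in control and 15.2 and 21.9 in obese fat, as was Pde3a with 21.6 and 16.7 against 22.3 and 13.3.

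The G protein alpha subunits and the cyclases differed little, by -0.09 to 0.25 on the log2 scale. Gnas, the gene of the stimulatory alpha subunit, had signals of 2432.4 and 2558.2 in control and 2434.7 and 3122.2 in obese fat. Only obese replicate 2 stood above the controls, and the difference was 0.14 ± 0.18 (limma adjusted p = 0.869). It was -0.04 without obese replicate 2, and a second probe set of Gnas gave -0.55, with 48.9 and 72.6 in control and 51 and 32.3 in obese fat. The inhibitory subunits differed by 0.17 for Gnai2, with no overlap of the groups, and by 0.08 for Gnai1, with overlap.

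Adcy6, a cyclase that calcium inhibits, was the only one of the 6 cyclases whose groups did not overlap, where 40% of all probe sets had no overlap. Its signals were 541.9 and 547.2 in control and 595.3 and 703.6 in obese fat, a difference of 0.25 ± 0.14 (limma adjusted p = 0.683). The value was 0.13 without obese replicate 2, and the second probe set of the gene gave 0.14, with overlapping groups. The other 5, Adcy2, Adcy3, Adcy4, Adcy5 and the bicarbonate-activated Adcy10, differed by -0.09 to 0.09. Of all 6 cyclases 3 had higher means in obese fat, and 5 had under each of the 3 other scalings. Adcy8 was left out, with all 4 arrays between 1.5 and 6.9.

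Protein kinase A is built from catalytic subunits, Prkaca and Prkacb, and regulatory subunits that bind cAMP. The catalytic genes were nearly level: Prkaca differed by 0.01 ± 0.14 and Prkacb by 0.01 ± 0.19 on the log2 scale. A second, dimmer probe set of Prkacb gave -0.41, with 102 and 91.4 in control and 79.7 and 66.2 in obese fat. Prkar2b, the RII beta subunit that is abundant in fat cells, had signals of 1259 and 978.7 in control and 1171.9 and 1771 in obese fat. The groups overlapped, and the difference of 0.38 ± 0.24 (limma adjusted p = 0.726) ranged from 0.08 (obese replicate 2 left out) to 0.67 (obese replicate 1 left out), with 0.19 when control replicate 2 was left out. Prkar1a, the widely expressed RI alpha subunit, lay at 720.7 and 696.9 in control and 746.6 and 741.7 in obese fat, a difference of 0.07 without overlap. Its other probe sets gave 0.22 and 0.03. Prkar1b differed by -0.24 and Prkar2a by -0.03, both with overlapping groups.

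**Figure D2:**
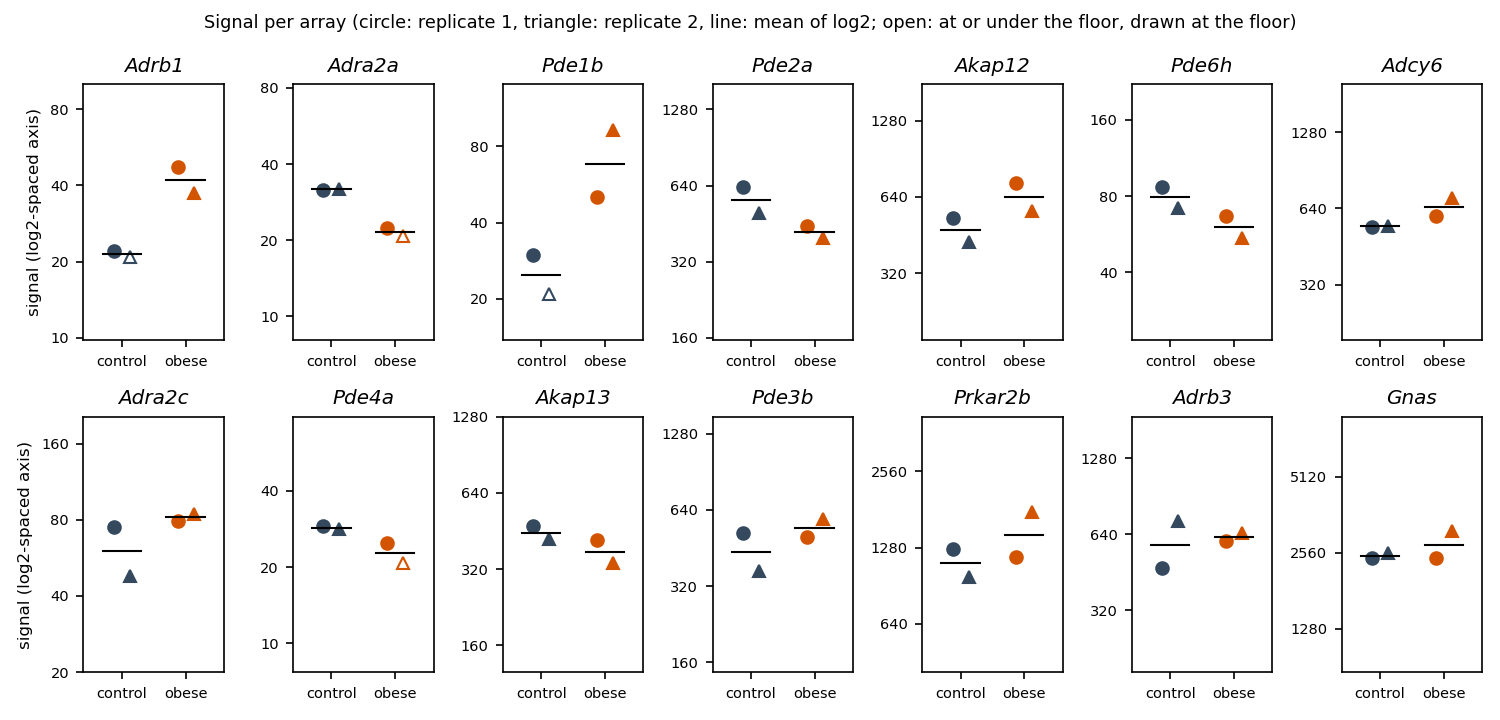
Signal on each of the 4 arrays for the 14 genes described in full, on axes spaced by log2 that span the same fold range; circles are replicate 1, triangles replicate 2, lines the mean of log2 signals, and open symbols lie at or under the floor and are drawn at it. Adrb1 and Pde1b sit higher and Adra2a and Pde2a lower on both obese arrays, while Prkar2b and Gnas stand out on obese replicate 2 alone.

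The 16 phosphodiesterases had differences from -0.42 to 1.46, with the upper end set by Pde1b. Of them 87.5% lay within 0.5 of 0, against 75% of the 8 adrenoceptors, whose differences ran from -0.56 to 0.97. Without overlap, 2 of the 16 phosphodiesterases were higher (12.5%, against 15.6% of all probe sets) and 5 lower (31.2%, against 24.4%). Pde1b, a phosphodiesterase that calcium and calmodulin activate and that cleaves both cAMP and cGMP, had signals of 29.8 and 18.1 in control and 50.3 and 92.6 in obese fat. It was the only one of the 49 genes with groups apart by at least 2-fold (1.14% of all probe sets were), and the difference was 1.46 ± 0.35 (limma adjusted p = 0.467). Control replicate 2 lay under the floor, and a floor at the 40th percentile gave 0.38. Pde1c, of the same family, had 42.4 and 44.5 in control and 54.7 and 47.8 in obese fat, a difference of 0.24 without overlap. Pde1a, also of this family, was left out, with 18.5 and 3.4 in control and 3.8 and 13.4 in obese fat.

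Pde2a, which cGMP stimulates and which cleaves both nucleotides, had signals of 631.5 and 500.9 in control and 443.9 and 398.7 in obese fat. Both obese arrays were lower, with a difference of -0.42 ± 0.16 (limma adjusted p = 0.577), and -0.25 without control replicate 1. Pde3b, the insulin-regulated enzyme of fat cells, had 521.1 and 368.8 in control and 501.6 and 591.4 in obese fat. Its groups overlapped, and its difference of 0.31 ± 0.20 (limma adjusted p = 0.726) ranged from 0.06 (control replicate 2 left out) to 0.56 (control replicate 1 left out), with 0.19 when obese replicate 2 was left out. The 6 kept enzymes that cleave both nucleotides (Pde1b, Pde1c, Pde2a, Pde3a, Pde3b and Pde10a) had a median difference of 0.13, with Pde3a and Pde10a near 0 at 0.02 and 0.01.

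Of the 5 kept enzymes specific for cAMP, 2 were lower and 0 higher without overlap, where 24.4% and 15.6% of all probe sets were. Pde4a had signals of 29 and 28.3 in control and 25 and 7.2 in obese fat. Both obese arrays were lower, and the difference of -0.33 ± 0.20 (limma adjusted p = 0.704) was -1.08 with the floor at the 10th percentile and -0.20 without obese replicate 2. Pde4d differed by -0.19 without overlap, Pde4b by 0.12 and Pde7a by -0.29 with overlap. Pde8a, a high-affinity cAMP phosphodiesterase, was high on 1 array alone: its signals were 30.3 and 29.1 in control, and 27.1 and 116.7 on obese replicates 1 and 2. Pde8a thus had a difference of 0.92 ± 0.64 (limma adjusted p = 0.744) that rested on obese replicate 2.

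The 5 genes of cGMP-specific enzymes and their small subunits had a median difference of -0.11. Of them 2 were lower without overlap, where 24.4% of all probe sets were. Pde6h, the inhibitory subunit of the cone photoreceptor enzyme, had 87 and 71.9 in control and 66.7 and 54.8 in obese fat. The groups did not overlap, and the difference was -0.39 ± 0.21 (limma adjusted p = 0.682), and -0.25 when control replicate 1 or obese replicate 2 was left out. Pde6g, its rod counterpart, differed by -0.11 without overlap. Pde5a, Pde9a and the prenyl-binding Pde6d differed by -0.04, -0.30 and 0.10, with overlap. Pde7b was left out, with 1.5 to 3 on the 4 arrays.

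Among the 10 anchoring proteins, 7 had lower means in obese fat (6 with each array centred on its median, 5 without control replicate 1). Akap12, gravin, which binds protein kinase A near beta adrenoceptors, lay the other way, with 530 and 426.5 in control and 726.2 and 564.1 in obese fat. Both obese arrays were higher, with a difference of 0.43 ± 0.18 (limma adjusted p = 0.615). A second probe set of Akap12 gave 0.02, from 206.6 and 187.4 against 213.3 and 186, so the mean of both was 0.22, and leaving out obese replicate 1 or control replicate 2 gave 0.25 or 0.27. Akap13, which also activates the GTPase RhoA, had 474.9 and 419.6 in control and 415.5 and 337 in obese fat. Its difference of -0.25 ± 0.16 (limma adjusted p = 0.712) ranged from -0.10 (obese replicate 2 left out) to -0.41 (obese replicate 1 left out). Akap17a and the nuclear protein Akap8 differed by -0.15 each, without overlap. The groups overlapped for Akap1, the anchor of the outer mitochondrial membrane, and for Akap7, Akap10, Akap11, Akap14 and Akap8l, with differences from -0.21 to 0.01. The other 2 probe sets of Akap8l gave -0.64 each, where the brightest gave 0.01. Akap4, Akap5 and Akap6 were left out, with no array above 15.7.

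Over the 13 kept genes with more than 1 probe set, 13 further probe sets could be tested, and 6 of them had the opposite sign to the one used. They belonged to Akap8l, Gnas, Prkacb and Prkar2a, where the other 2 probe sets of Prkar2a gave 0.02 and 0.13. The 35 genes not given in full had differences from -0.30 to 0.92, the last being Pde8a, with limma adjusted p between 0.744 and 0.995.

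Other genes of the pathway were taken from 8 lists, which held 129 different genes that could be tested. Of these, 0 passed in either direction over all probe sets (limma, smallest adjusted p = 0.258), and 10 higher and 11 lower had an unadjusted p under 0.05, where 8.3% of all probe sets did. A plain test passed 0 of the 129 and put 9 under that value, where it put 6.82% of all probe sets. The lists differ in how many genes they hold, so each is given as counts and a median, beside the median of -0.04 over all probe sets, of which 42.5% had higher means in obese fat.

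Receptors that act through Gs, other than adrenoceptors, were lower in obese fat for 14 of 17 genes, with a median of -0.21. Of them 5 were lower without overlap (29.4%, against 24.4% of all probe sets). After centring each array on its median 3 of the 17 were, where 16.9% of all probe sets were. Sctr, the secretin receptor, had signals of 66.9 and 88.5 in control and 21.9 and 20.4 in obese fat, a difference of -1.85 ± 0.22 (limma adjusted p = 0.258). Sctr had 1 obese array under the floor and the other just above it, so the size depends on the floor, and it was -0.49 with the 40th percentile. Adora2a, an adenosine receptor, lay highest, at 0.69 ± 0.29, with 29.1 and 48.5 against 63.7 and 57.7, but 0.32 without control replicate 1, 1.06 without control replicate 2 and 0.15 with the 40th percentile as floor. The median was -0.06 without obese replicate 2. The receptors that act through Gi were split, 9 higher and 8 lower of 17, with a median of 0.03. The sign of that median depended on each array, with values from -0.10 to -0.01 when any 1 array was left out. The cannabinoid receptor Cnr1 differed by -0.31 and the sphingosine phosphate receptor S1pr1 by 0.25 (0.09 without control replicate 2, 0.42 without control replicate 1), both without overlap.

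The remaining G protein subunits were 8 higher and 9 lower of 17, with Gnb5, a beta subunit, at 0.62 ± 0.21 and Gnat1, the rod transducin alpha subunit, lower. Gnat1 had signals of 29.5 and 31.3 in control and 19.6 and 20.1 in obese fat, both of the latter under the floor, so that it was kept through the control arrays alone and its -0.55 is set by the floor. Regulators of G proteins, receptors and the kinase were lower for 18 of 25 genes, with a median of -0.20, and 10 were lower without overlap (40%, against 24.4% of all probe sets). With each array centred on its median they were lower for 14 of 25, and 9 were lower without overlap, where 16.9% of all probe sets were. Without obese replicate 2 the median was -0.06. Among the 10 regulators lower without overlap, Rgs1 was kept through the control arrays alone (26.5 and 47). Both its obese signals (17.2 and 15.9) lay under the floor, so once it was kept its groups could not overlap. Grk6, a kinase that desensitizes receptors, had 157.1 and 124.9 in control and 86.6 and 70.6 in obese fat, a difference of -0.84 ± 0.20 (limma adjusted p = 0.467). Pkig, an inhibitor of protein kinase A, had 202.4 and 168.3 in control and 280.6 and 235.3 in obese fat, a difference of 0.48 ± 0.17 (limma adjusted p = 0.557). The list of cAMP effectors and CREB factors was 10 higher and 9 lower of 19. In order of t its ends were Creb1, the factor that binds the cAMP response element, at -0.54 ± 0.18 and Ppp1r1a, a phosphatase inhibitor that protein kinase A activates, at 0.50 ± 0.14.

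The genes listed as lipolytic targets of protein kinase A were higher in obese fat for 8 of 8, with a median of 0.26. Of them 4 did not overlap (50%, against 15.6% of all probe sets). Beside lipases, the list holds Plin1, G0s2, Fabp4, Aqp7 and Cav1, which are not lipases. Adipocyte markers were also higher, for 8 of 9 genes with a median of 0.17 (7 of 9 with quantile normalization or cyclic loess, and a median of 0.07 without obese replicate 2), and 4 genes, Plin1, Fabp4, Lipe and Aqp7, are in both lists. For the lipolytic list, with cyclic loess it was 7 of 8, since Pnpla2 turned to -0.00090, and without obese replicate 2 it was 7 of 8 with a median of 0.11. G0s2, which inhibits adipose triglyceride lipase, had 628.2 and 568.8 in control and 857.8 and 1094.1 in obese fat, a difference of 0.70 ± 0.16 (limma adjusted p = 0.460). Pnpla2, that lipase itself, lay lowest, at 0.08 ± 0.16, with overlap. Of the other lipases, Lipe differed by 0.14 with overlap and Mgll by 0.41 without overlap. Genes known to be induced by cAMP were 10 higher and 7 lower of 17, with a median of 0.01. Dusp1, a phosphatase of MAP kinases, had 721.1 and 659.1 in control and 1189.2 and 1171.6 in obese fat, a difference of 0.78 ± 0.13 (limma adjusted p = 0.373), and Atf3 differed by -1.04 ± 0.34, and by -0.59 without obese replicate 2. The genes of the cGMP pathway were 5 higher and 6 lower of 11, from Nos1 at -0.45 (0 with the 40th percentile as floor) to Gucy2d at 0.46 (0.22 without obese replicate 2, 0.70 without obese replicate 1) in order of t.

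**Figure D3:**
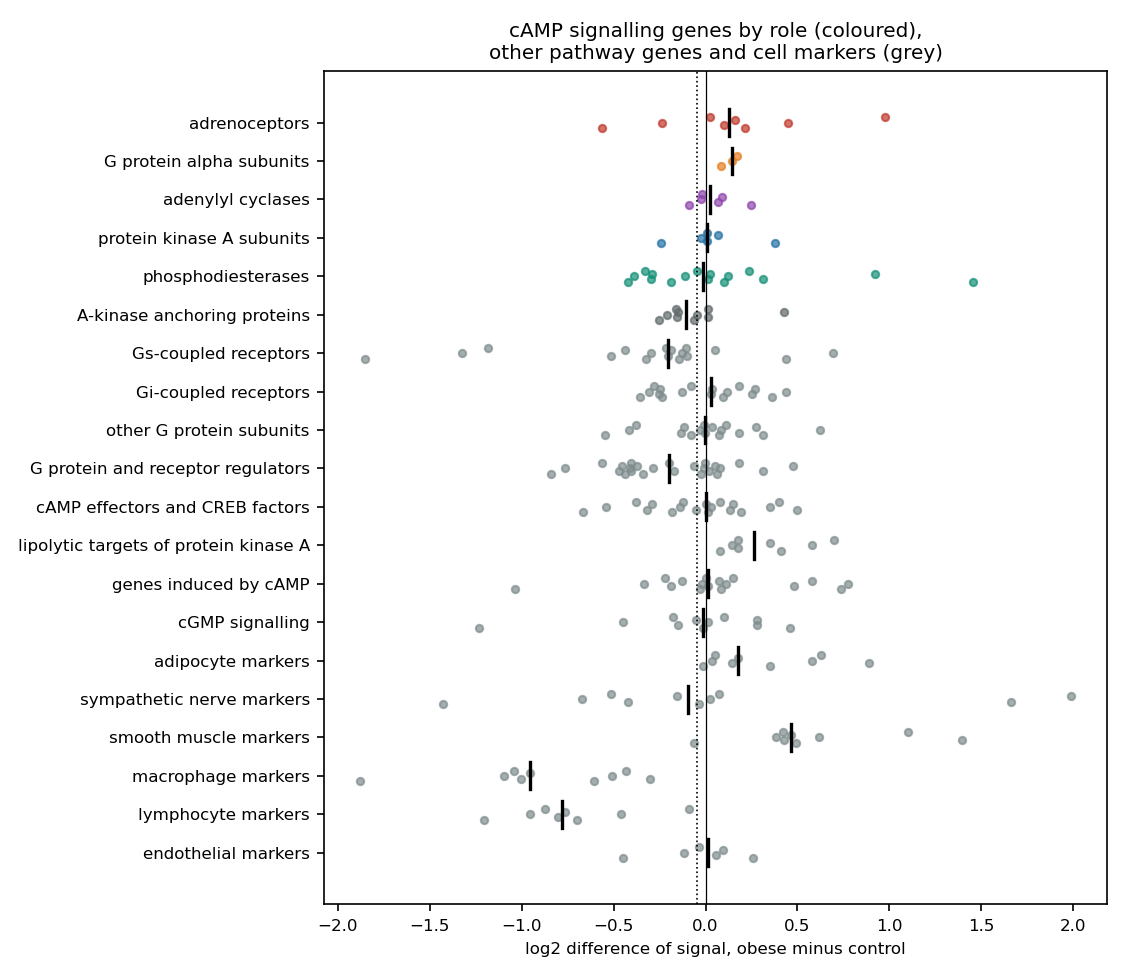
Log2 difference, obese minus control, of each gene of the 49 by role (coloured) and of the genes of 8 other pathway lists and 6 marker lists (grey); each dot is 1 gene, black bars are medians and the dotted line is the median of all probe sets. The coloured groups centre near 0, the lipolytic list lies to the right, and the macrophage and lymphocyte markers lie to the left.

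The arrays also differed in the markers of other cells, and the part of this in the values above was not tested. In whole tissue, fewer cells of a type and less RNA per cell cannot be told apart. Macrophage markers were lower in obese fat for 9 of 9 genes, with summed signals of 4956.4 to 5270.3 against 7964.4 to 10523.1 in control fat. Their differences ran from -1.88 to -0.30, with Laptm5 (-1.09) and Lyz2 (-0.43, and -0.22 without obese replicate 2) at the ends in order of t. Lymphocyte markers were lower for 8 of 8 (7 of 8 with cyclic loess), with sums of 788.1 to 950 against 1437.9 to 1873.8. Cd4 had the highest signals of this list, with 569.1 and 540.8 in control and 303.2 and 270.1 in obese fat. In rats Cd4 is not confined to lymphocytes, nor is Ptprc, so this list cannot be told apart from the macrophage list. The groups did not overlap for 5 of the 8 (62.5%, against 24.4% of all probe sets lower). Among these, Cd8a was kept through the control arrays alone, with both obese arrays under the floor. The groups overlapped for Cd3d (77.7 and 26.2 in control, 28.8 and 23.3 in obese fat), Cd3g and Cd8b. The differences of the list ran from -1.20 to -0.09, with Cd4 (-0.96) and Cd8b (-0.09) at the ends in order of t. Lymphocyte markers had a median of -0.78, and of -0.27 without control replicate 1. Macrophage markers had a median of -0.95, and of -0.60 without control replicate 2. Endothelial markers had sums of 1631.2 to 1691.4 in obese and 1671.4 to 1705.1 in control fat, with Tie1 at -0.45 and Cldn5 at 0.26.

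Smooth muscle markers stood apart on obese replicate 1 alone, with a sum of 5887.4 against 2117 to 2462.2 on the other 3 arrays. Actg2 had 675.1 there and 77.4 to 91.5 elsewhere, and Smtn differed by -0.06. Akap12 was among the 10 of the 49 genes that were highest on that array, and 8 of the 49 were lowest there. Sympathetic nerve markers were higher in obese fat for 4 and lower for 6 of 10 genes, with a median of -0.10. With each array centred on its median, 5 were higher and 5 lower. Their sums were 671.6 to 1143.8 in obese and 582.7 to 740.4 in control fat. Of the 1143.8 on obese replicate 1, Npy gave 521.5 and Uchl1 146.1. Uchl1 had 24.8 and 6 in control fat, the latter under the floor, and 35.2 on obese replicate 2. Npy, at 1.99 ± 0.38, had 125.8 and 72.2 in control and 521.5 and 274.5 in obese fat, and Snap25 lay at -1.42 ± 0.43. Snap25 had 1 obese array under the floor, and its difference was -0.79 without control replicate 1 and -0.42 with the 40th percentile as floor. Dbh and Slc6a2, genes of noradrenergic neurons, were under the floor on all 4 arrays, and the nerve supply of the fat was not measured. Adipocyte markers were present on all arrays, with a sum of 17178.3 on obese replicate 2 against 13405.8 to 13859.7 on the other 3, with Slc2a4 at 0.63 and Cfd at -0.02 (0.06 with each array centred on its median). Gnas, Prkar2b, Adcy6 and Pde3b were among the 15 of the 49 genes with their highest signals on obese replicate 2. For 16 of the 49 the lowest signal was on that array. A link of these genes with the markers was not tested.

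**Figure D4:**
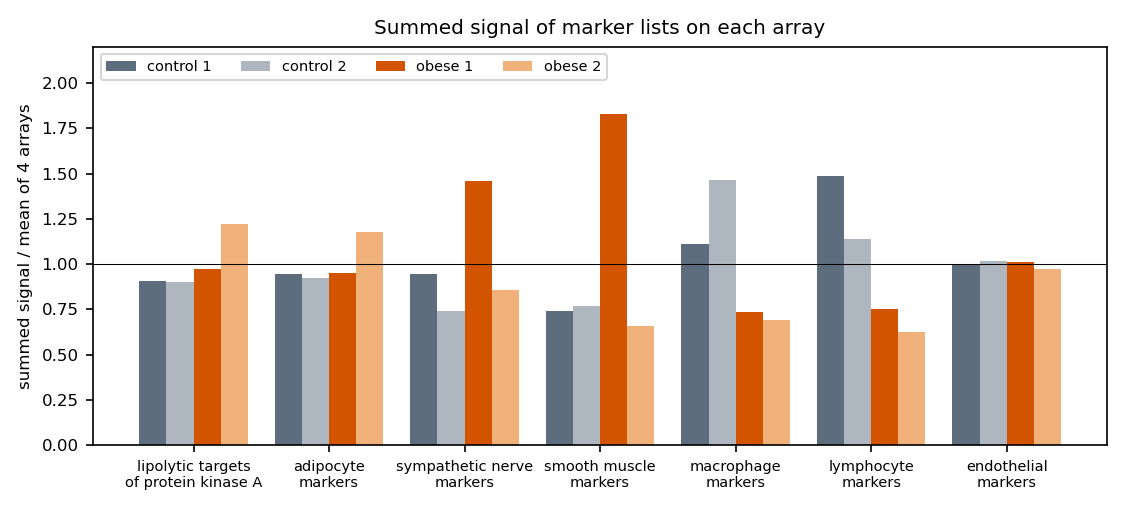
Summed signal of the lipolytic list and of 6 marker lists on each array, divided by the mean of the 4 arrays; bars start at 0. Macrophage and lymphocyte sums are lower on both obese arrays, the smooth muscle sum is high on obese replicate 1 alone, and the adipocyte sum is highest on obese replicate 2.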

How the data were processed

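The authors' deposited intensities, linear values for each probe set on each array, had been scaled, from the values: the mean after trimming 2% at each end was 150.026 to 150.03 on all arrays. For scanner, software and normalization: not given in the sources used here. Of 15923 probe sets, 57 controls were left out, 12783 had 1 symbol, 312 several and 2771 none, and names come only from those with 1. Values under the 20th percentile were raised to it, and log2 was taken. Probe sets with at least 2 arrays above it (12929) were fitted with limma 3.58.1 in R 4.3.3 (eBayes with trend, two-sided, Benjamini-Hochberg over all), and the standard errors are moderated, with 5.83 degrees of freedom. An exact permutation test of 2 against 2 cannot go below 0.333, so none was run. The code was tested on simulated data.

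The members and lists were chosen with earlier results of these data known. Given in full are Adrb1, Adra2a, the 12 members with the smallest p and the brightest of each role, and of each list the genes with the largest and smallest t. Pde8a, Pde1c, Prkar1a and the other members are named as members. Alternatives covered scaling, floor, filter, variance model, replicate block, probe sets and left-out arrays. With 1 array left out, a lone array takes its variance from the other group.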

Additional observations from a re-analysis of the deposited data

How the results depend on the processing

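The 14 genes given in full were recomputed in 220 gene and setting pairs, and 3 turned sign: Adrb3 (-0.20 without control replicate 1, and 0.41 without control replicate 2) and Gnas (-0.20 for the mean of its probe sets, and -0.035 to 0.32 with 1 array left out). No member passed under any of the 16 alternatives. Among all probe sets, 1 passed with the floor at the 10th percentile, 5 at the 40th, 3 with a pseudocount of 16, 6 with no filter and 1 without trend. Members at least 2-fold apart without overlap numbered 2 with median centring, quantile normalization or cyclic loess, 3 with the floor at the 10th percentile, 0 at the 40th, 0 with all 4 arrays above the floor, which removes Pde1b, and 1 to 2 with 1 array left out. In the main fit there was 1, where 1.14% of all probe sets were that far apart. Members higher without overlap were 5 with the floor at the 40th percentile, where 12.7% of all probe sets were. With 1 array left out they were 14 to 19 (27% to 32.1% of all probe sets), and those lower were 15 to 17 (36.1% to 46%). The members' median was 0.0897 with median centring and 0.0485 with cyclic loess, where the median over all probe sets was 0.0324 and -0.00063. Of the list genes, Cfd was 0.0629 and Smtn 0.0166 with median centring, and Pnpla2 -0.00090 and Cd8b 0.00094 with cyclic loess. With 1 array left out, Cfd ranged from -0.0557 to 0.023, Smtn from -0.34 to 0.22, Pnpla2 from -0.0654 to 0.22, Cd8b from -0.41 to 0.24 and Actg2 from -0.17 to 2.95. The cause was not tested in these cases. The replicate numbers are shared by the groups, and a fit with the number as a replicate block passed 0 members. Its median, 0.01, was the same by construction, since each group holds each number. Deviations from the group mean correlated at 0.05 between arrays with the same number and at -0.05 between arrays with different numbers. With 2 arrays a group these are 1 value with its sign turned. It cannot decide whether arrays with the same number share more than the number. Signals near the floor, as for Adrb1, Adra2a, Pde1b and Pde4a, limit the size of a difference.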
